A study of Mus musculus with 19 samples.

Results

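Neutrophils taken from mouse tumours (TAN, tumour-associated neutrophils) were compared across all genes with naive neutrophils of the bone marrow (NN). The samples were chosen by their titles: TAN replicates 1, 2 and 4 against NN replicates 1 to 7, which are 10 of the 19 arrays of the series. Of the other arrays, 4 are splenic granulocytic cells of tumour-bearing mice (G-MDSC). The remaining 5 are tumour neutrophils after SM16, an inhibitor of the TGF-beta receptor kinase Alk5 (SM16). The G-MDSC and SM16 arrays entered here the normalization, the detection filter, the choice of 1 probe per gene and the estimate of spread. No gene was tested against them, and only their correlations and lowest signals are compared below. RNA was amplified, labelled with biotin and read as the intensity of 1 array per sample. Every sample is described as a clonal mouse, and no strain, age, tumour line or cell sorting step is named in the labels used here. Tumour against no tumour, tissue of origin and the isolation of the cells cannot be told apart in this design. The labels do not say whether each array of a group is a different animal, and the p-values cover the spread between arrays only, which may be technical.

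Neutrophils are built in the marrow in steps. Early precursors fill azurophil granules with Mpo and serine proteases, later ones fill specific and gelatinase granules with proteins such as lactoferrin and cathelicidin, and factors such as Cebpe drive those genes before they are switched off in the mature cell. Once in inflamed tissue, neutrophils can transcribe chemokines and cytokines through NF-kB and AP-1, and in tumours they have been described in states that restrain or promote growth.

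All 12 neutrophil markers tested had a detected signal (detection p under 0.01) on every TAN and NN array. Of these 12, 7 were called lower and 3 higher (median log2 difference -0.80, and -0.15 with TAN replicate 4 alone). Of all genes tested, 30.0% were called lower and 39.3% higher. The summed level of the 12 was 18.19, 18.20 and 18.26 on TAN replicates 1, 2 and 4, against 18.37 to 18.43 in NN. The transcripts of the calprotectin subunits S100a8 and S100a9 lay between 15.43 and 15.89 on the log2 intensity scale on all 10 arrays. Both lie near the top of the scale, which limits what their differences can show, and neither was called (-0.07 and -0.09, limma adjusted p = 0.485 and 0.445).

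The 3 TAN arrays were not alike. Across genes, TAN replicates 1 and 2 correlated at 0.992 with each other and at 0.881 and 0.891 with TAN replicate 4, which correlated at 0.964 to 0.976 with the SM16 arrays and so lay nearer to those than to the other TAN arrays. Whether TAN replicate 4 carries the right label, and whether the RNA of TAN replicates 1 and 2 was intact, was not tested. TAN replicate 4 below means the array so labelled. Of the 2522 genes measured by more than 1 probe, 348 had at least 1 probe called higher and 1 called lower when all 3 arrays were used. That number was 40 with TAN replicate 4 alone and 535 without it. Only called probes enter these numbers, and the last 2 rest on 1 and on 2 TAN arrays, so they were not compared at equal power. Because the TAN arrays were not alike, the counts of each list are given with TAN replicate 4 alone too. That is a single array assumed to vary like the other groups and already part of the full comparison. For a single gene, the levels on the TAN arrays or the value with TAN replicate 4 alone are given where that array moves the fold by more than 1.5 times. NN replicates 6 and 7 had a lowest signal under 40, as had all G-MDSC arrays, while the other NN arrays and all TAN arrays had higher ones. The labels do not name this batch, and values against NN replicates 1 to 5 alone are given where they move a call.

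Of 9523 genes tested, 6603 were called (69.3%) by limma at a Benjamini-Hochberg adjusted p under 0.05, 3742 higher in TAN (39.3%) and 2861 lower (30.0%). Of these, 2288 were at least 2-fold higher (24.0%) and 1897 at least 2-fold lower (19.9%). The comparison of TAN replicate 4 alone called 4731 genes (49.7%), 2460 higher (25.8%) and 2271 lower (23.8%), of which 1793 were at least 2-fold higher (18.8%) and 1586 at least 2-fold lower (16.7%). Both comparisons called 3996 genes the same way (42.0%), 2104 higher (22.1%) and 1892 lower (19.9%). All TAN arrays lay above all NN arrays for 2757 genes and below them for 2180 (51.8% together). All 3 TAN arrays and no NN array detected 290 genes (3.05%), and all 7 NN arrays and no TAN array detected 343 (3.6%). A list of genes is read against these shares, and its median log2 difference against 0.19 over all genes tested, or 0.03 with TAN replicate 4 alone. Some members that went against the direction of their list are named as well, picked after their values were seen. The lists share members, so their counts are not independent.

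**Figure D1:**
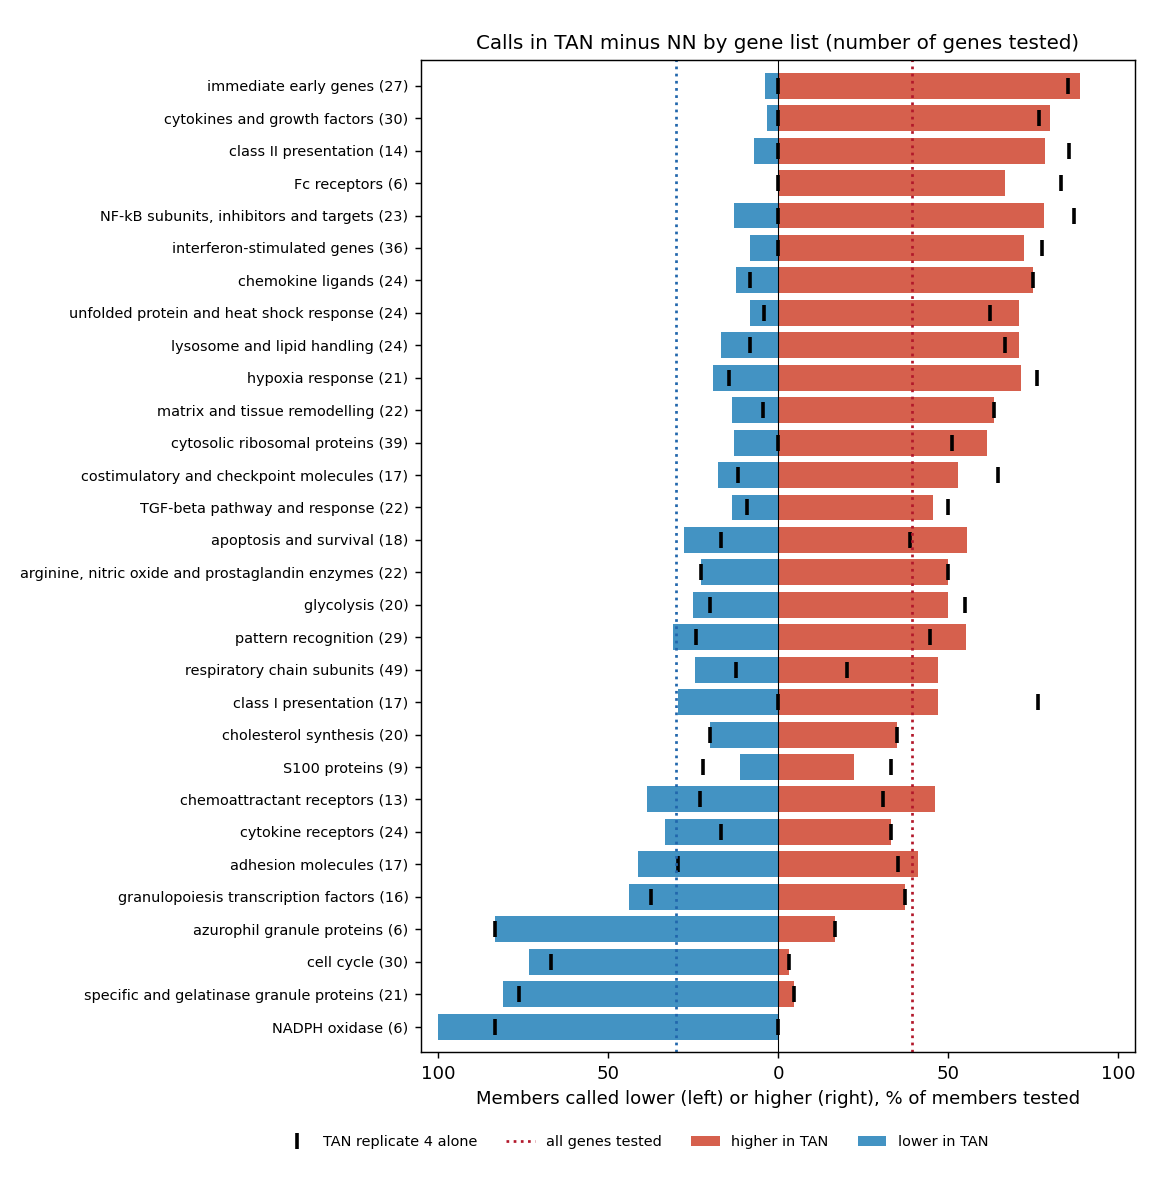
Share of the members of each of the 30 function lists called lower (bars to the left) or higher (bars to the right) in TAN minus NN, as a percentage of the members tested, whose number stands in brackets. Black marks give the same shares with TAN replicate 4 alone, and dotted lines give the shares over all genes tested, 39.3% higher and 30.0% lower. Immediate early genes, cytokines and class II genes lie at the top, and granule, cell cycle and NADPH oxidase genes at the bottom.

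Chemokine ligands had the largest median rise of the function lists. Of 24 tested, 18 were higher and 3 lower, with a median log2 difference of 4.93. With TAN replicate 4 alone the counts were 18 and 2 and the median 5.25. Of the 24, 9 had no detected signal on any NN array.

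Ccl12, Ccl7 and Ccl8 encode CC chemokines that draw monocytes. The level of Ccl12 was 13.78, 14.04 and 13.93 on TAN replicates 1, 2 and 4, the order kept below. No NN array detected it, and they lay at 4.38 to 5.09 (median 4.86). The Ccl12 transcript was at least 356-fold higher in TAN. Ccl7 stood at 12.91, 13.42 and 13.56 against 4.42 to 5.02 (median 4.56), at least 231-fold higher. Ccl8 stood at 13.52, 13.94 and 14.71 against 4.52 to 5.46 (median 5.22), at least 383-fold higher, with 2 of 7 NN arrays detecting it. For each of the 3 genes the lowest TAN array lay more than 7 log2 above the highest NN array.

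Ccl3 and Ccl4, which encode inflammatory CC chemokines, were detected on all arrays. Ccl4 was at 15.89, 15.79 and 15.94 in TAN, against 6.63 to 7.52 in NN (median 7.23), a 431-fold rise (limma adjusted p = 4.7e-14). On the TAN arrays it lay close to the top of the scale, which limits the fold. Ccl3 was at 13.92, 13.67 and 15.87 against 6.18 to 8.18 (median 7.49), a 150-fold rise, and its level on TAN replicate 4 was the highest by about 2 log2. Ccl17, a ligand of Ccr4 that draws regulatory T cells, went the other way among the TAN arrays. It stood at 11.19, 11.06 and 9.23, with no detected signal and 4.34 to 4.88 on the NN arrays (median 4.48), at least 33.1-fold higher.

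Cxcl1 and Cxcl2 encode ligands of Cxcr2, the receptor that calls neutrophils into tissue. Cxcl1 was at 13.85, 13.78 and 13.85 against 4.40 to 5.21 (median 4.64) with no detected signal in NN, at least 333-fold higher. Cxcl2 was at 15.34, 15.19 and 15.46 against 5.36 to 7.98 (median 6.82), a 370-fold rise. The 3 TAN arrays were nearly equal for both genes. The 3 chemokine ligands that fell were Ppbp, a platelet chemokine (-6.37, or -5.27 with TAN replicate 4 alone), Cxcl12, the ligand of Cxcr4 that holds neutrophils in the marrow (-4.93), and Ccl6 (-1.92). Ccl6 was at 7.85 and 8.26 on TAN replicates 1 and 2 and at 11.52 on TAN replicate 4, above the NN arrays.

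The promoters of the genes named for the size of their change were searched on both strands for the NF-kB motif (GGG, any 3 bases and TTCC), the C/EBP motif TTNNGCAA and the AP-1 motif TGANTCA. The windows run from 250 bases before to 50 after each start in RefSeq (GRCm38.p6). At least 1 such window, with or without a match, was present for 19 of 25 genes named as higher and 18 of 25 named as lower. The 4 windows shown hold matches, in capitals, beside genes whose levels moved far: NF-kB in Cxcl1 and Cxcl2, AP-1 in the collagenase gene Mmp13, and C/EBP in the ficolin gene Fcnb, whose transcript no TAN array detected.
Cxcl1, chr5:90890995-90891294, + strand: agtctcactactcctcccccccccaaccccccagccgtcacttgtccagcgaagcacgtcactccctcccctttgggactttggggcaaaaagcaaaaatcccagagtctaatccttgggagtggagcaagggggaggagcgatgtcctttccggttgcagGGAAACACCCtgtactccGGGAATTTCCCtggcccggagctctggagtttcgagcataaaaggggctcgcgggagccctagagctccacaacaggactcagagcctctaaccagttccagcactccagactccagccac
Cxcl2, chr5:90903649-90903948, + strand: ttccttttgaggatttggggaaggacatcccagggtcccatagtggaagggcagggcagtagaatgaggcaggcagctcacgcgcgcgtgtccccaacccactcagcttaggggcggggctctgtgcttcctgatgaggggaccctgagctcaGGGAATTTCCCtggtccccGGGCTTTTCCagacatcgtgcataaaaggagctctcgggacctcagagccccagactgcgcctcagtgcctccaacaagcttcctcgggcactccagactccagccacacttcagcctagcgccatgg
Mmp13, chr9:7272264-7272563, + strand: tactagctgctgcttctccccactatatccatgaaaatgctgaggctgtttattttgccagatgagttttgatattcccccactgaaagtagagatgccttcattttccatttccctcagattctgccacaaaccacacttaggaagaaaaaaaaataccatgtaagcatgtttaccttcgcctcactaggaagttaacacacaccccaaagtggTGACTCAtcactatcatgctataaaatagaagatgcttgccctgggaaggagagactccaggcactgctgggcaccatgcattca
Fcnb, chr2:28084829-28085128, - strand: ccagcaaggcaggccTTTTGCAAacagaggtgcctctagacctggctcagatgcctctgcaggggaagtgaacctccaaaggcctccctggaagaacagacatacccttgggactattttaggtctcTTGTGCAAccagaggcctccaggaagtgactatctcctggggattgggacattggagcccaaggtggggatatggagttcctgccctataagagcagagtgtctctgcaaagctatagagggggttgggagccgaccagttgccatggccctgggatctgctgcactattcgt

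Cxcl1 and Cxcl2 each had 3 matches to the NF-kB motif, of which 2 overlap on opposite strands in the shared stretch GGGAATTTCCC. The NF-kB motif lay in a window of 4 of the 19 genes named as higher (21.1%), 2 of the 18 named as lower (11.1%) and 6.31% of the 26994 genes with a window. The C/EBP motif lay in 4 of the 19 (21.1%), 3 of the 18 (16.7%) and 12.2% of all, and the AP-1 motif in 3 (15.8%), 2 (11.1%) and 8.98%. Over the 7756 tested genes with a window the 3 shares were 7.2%, 11.1% and 7.3%. The 19 genes had 28 windows and the 18 had 20, and a gene with more windows has more room for a match. These are descriptions of short sequences in few genes. They show no binding, and no match says only that these letters are not in the window.

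Cytokines and growth factors rose with the chemokines. Of 30 tested, 24 were higher and 1 was lower, with a median of 2.25; with TAN replicate 4 alone 23 were higher and none was lower, with a median of 2.22. Il1a, the interleukin-1 alpha gene, was at 10.83, 10.59 and 11.95 against 4.95 to 5.44 (median 5.25), at least 51.1-fold higher. Csf1, the growth factor of macrophages, was at 11.57, 11.36 and 10.79 against 4.99 to 6.52 (median 5.80), a 44.0-fold rise. Neither gene had overlapping arrays, as was true of 51.8% of all genes tested.

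Hbegf, a ligand of the EGF receptor, and Il23a, a subunit of interleukin-23, were raised mostly on TAN replicate 4. Hbegf was at 7.70, 8.34 and 10.66 with no detected signal in NN (4.70 to 5.27, median 4.81), at least 10.96-fold higher. Il23a was at 7.33, 7.67 and 10.79 against 4.58 to 4.84 (median 4.71), at least 8.89-fold higher. Tnf showed the same split: 10.52 and 10.70 on TAN replicates 1 and 2, 13.93 on TAN replicate 4 and 8.69 to 10.02 in NN (median 9.23). Its log2 difference was 2.34 (SE 0.52, limma adjusted p = 0.000503), or 4.55 with TAN replicate 4 alone. Il1b was already high in NN, at 12.82 to 13.75 (median 13.59), and reached 15.76, 15.78 and 15.78 in TAN, a 5.29-fold rise near the top of the scale. Tgfb1, the 1 called lower, stood at 8.38 and 8.58 on TAN replicates 1 and 2 but at 11.39 on TAN replicate 4, above the NN arrays (10.26 to 10.92). It was called higher with TAN replicate 4 alone (0.79, limma adjusted p = 0.0155), and was not called without TAN replicate 1 (0.205) or 2 (0.166) or in a limma fit of TAN and NN only (0.0613).

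Genes of the NF-kB pathway and immediate early genes, which cells switch on within minutes of stimulation, were raised. Among NF-kB subunits, inhibitors and targets 18 of 23 were higher and 3 lower (median 2.10), and with TAN replicate 4 alone 20 and none (2.28). Tnfaip3, which encodes the NF-kB inhibitor A20, rose 48.0-fold, from 8.29 to 8.83 in NN (median 8.61) to 14.25, 14.03 and 14.28. Traf1, a signalling adaptor, was at least 16.8-fold higher and Ptgs2, the inducible cyclooxygenase, at least 22.3-fold higher, both with no detected signal in NN. Cd40, a costimulatory receptor, rose 13.4-fold. The 3 that fell were the kinase gene Ikbkb (-0.81) and the signalling genes Birc2 (-0.41) and Traf2 (-1.10), and none of these was called with TAN replicate 4 alone. Birc2 also lost its limma call without TAN replicate 1 (adjusted p = 0.111) or 2 (0.13) and against NN replicates 1 to 5 (0.0656).

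Of 27 immediate early genes, 24 were higher and 1 lower (median 2.21), and with TAN replicate 4 alone 23 and none (2.69). Fosb, an AP-1 subunit, was at 12.65, 12.65 and 12.83 against 4.49 to 6.70 (median 4.92), at least 135-fold higher. Atf3, a stress-induced transcription factor, was at 12.38, 12.55 and 13.31 against 5.17 to 5.85 (median 5.51), a 152-fold rise. Egr2, a zinc-finger factor, was at least 61.2-fold higher. Its relative Egr1 rose 70.0-fold to 15.54, 15.47 and 15.69, while its NN arrays spread from 8.39 to 11.63 around a median of 8.62. For all 4 genes no TAN array overlapped an NN array, as for 51.8% of all genes tested. That was a condition for naming Atf3 and Egr1. The exception was the DNA damage gene Gadd45a (-1.76), at 10.42 and 10.48 on TAN replicates 1 and 2 and 13.57 on TAN replicate 4, just above the NN arrays.

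**Figure D2:**
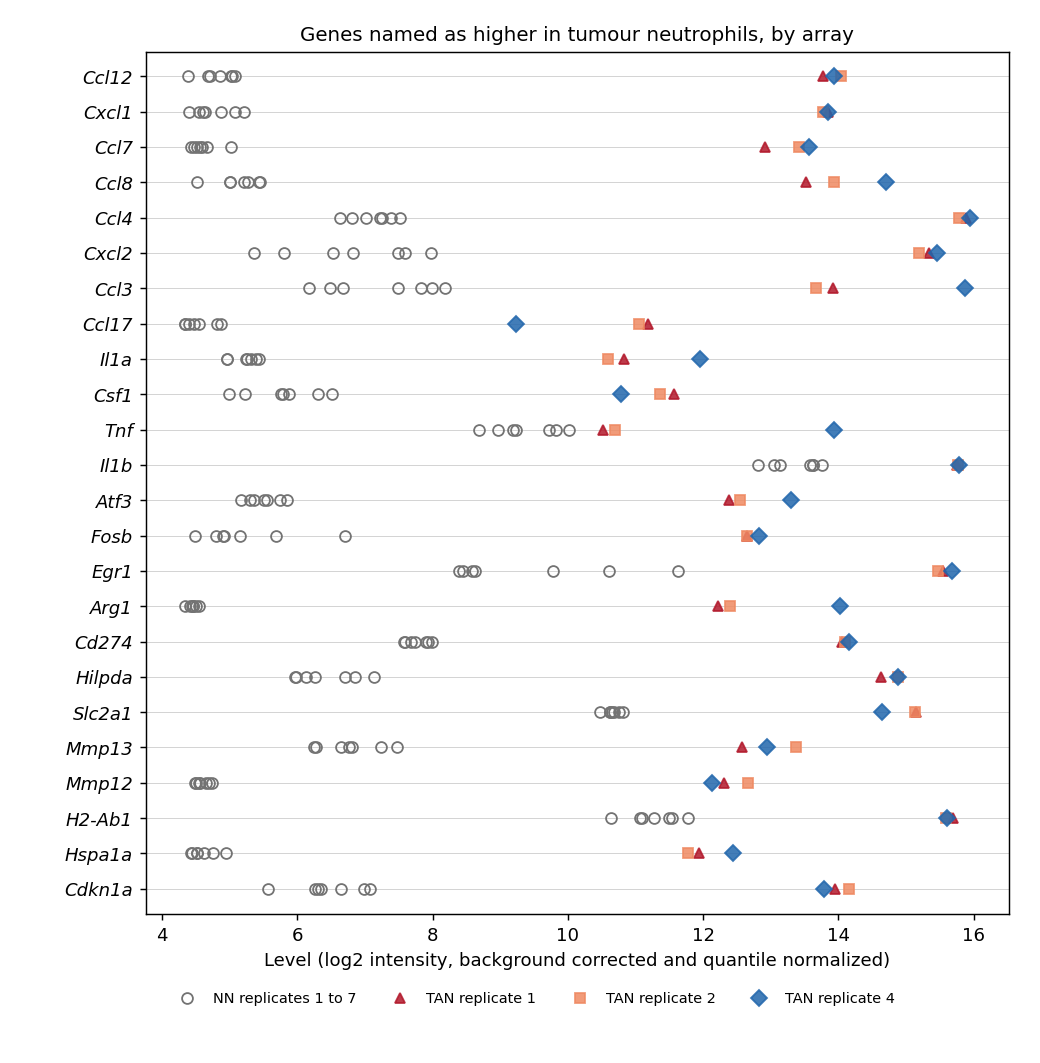
Level of 24 genes (rows) on each array, as log2 intensity after background correction and quantile normalization. Open circles are the 7 NN arrays and filled symbols the 3 TAN arrays. In every row all TAN arrays lie to the right of all NN arrays, which was a condition for naming some of these genes. Ccl3, Tnf and Arg1 are higher, and Ccl17 lower, on TAN replicate 4 than on TAN replicates 1 and 2.

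Interferon-stimulated genes and antigen presentation followed. Of 36 interferon-stimulated genes, 26 were higher and 3 lower (median 2.01), and with TAN replicate 4 alone 28 and none (2.02). Gbp5, a guanylate-binding protein gene, was at least 27.7-fold higher (10.02, 10.07 and 10.63, not detected in NN at 4.50 to 5.02). Mx2, an antiviral GTPase gene, was at least 24.0-fold higher, Gbp3 rose 18.5-fold (29.7-fold on TAN replicate 4 alone) and Oasl2, a relative of the oligoadenylate synthetases, 14.3-fold. The 3 that fell were the RNA sensor genes Ddx58 (-2.72) and Dhx58 (-1.60) and the synthetase gene Oas3 (-2.04), and none of these was called with TAN replicate 4 alone (-0.37, -0.69 and 0.61). Oas3 also lost its limma call without TAN replicate 1 (adjusted p = 0.0514) or 2 (0.0598).

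Class II presentation genes were higher in 11 of 14 and lower in 1 (median 3.05), and with TAN replicate 4 alone in 12 and none (3.40). H2-Ab1, a class II beta chain, was at 15.70, 15.59 and 15.61 against 10.64 to 11.77 (median 11.28), a 20.6-fold rise; 1 of its 4 probes had the opposite sign. H2-Eb1 rose 21.4-fold, and H2-DMa and H2-DMb1, which encode the chains that load peptides onto class II molecules, rose 22.9-fold and 28.4-fold. The exception was H2-DMb2 (-2.01, but 0.32 and not called with TAN replicate 4 alone). Class II genes are expressed by macrophages and dendritic cells too. Of 16 monocyte and macrophage markers 12 were higher, as given below, and their part in these values was not tested.

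Class I presentation split the TAN arrays. Of 17 genes, 8 were higher and 5 lower (median 0.22), but with TAN replicate 4 alone 13 were higher and none lower (1.47). Without TAN replicate 4 the counts were 7 and 9 (-0.64). Nlrc5, the transactivator of class I genes, rose 24.0-fold (10.68, 10.49 and 10.82 against 5.63 to 6.79), and the immunoproteasome subunit gene Psmb10 rose 12.9-fold. Psme2, a proteasome activator, was at 4.49 and 4.83 on TAN replicates 1 and 2 and at 9.85 on TAN replicate 4, against 8.77 to 9.46 in NN. The peptide-loading gene Tapbp was called lower (-2.60), with -0.66 and no call on TAN replicate 4 alone.

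Among costimulatory and checkpoint molecules 9 of 17 were higher and 3 lower (median 1.07), and with TAN replicate 4 alone 11 and 2 (1.88). Cd274, which encodes the checkpoint ligand PD-L1, was at 14.05, 14.09 and 14.16 in TAN, against 7.58 to 7.99 in NN (median 7.74). It rose 80.2-fold (log2 difference 6.33, SE 0.18, limma adjusted p = 6.88e-16), with little spread in either group. Havcr2, the inhibitory receptor Tim-3, was at 10.21, 10.22 and 9.87 with no detected signal in NN, at least 25.3-fold higher. Cd83, an activation marker of presenting cells, rose 17.7-fold. Among the 3 that fell, Cd47, which restrains phagocytosis, and Cd24a were lower also with TAN replicate 4 alone (-2.37 and -1.19 with all arrays, -1.72 and -1.42 alone), and Lgals9, which encodes galectin-9, was not (-2.73 and 0.43).

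Arg1, arginase 1, which depletes the arginine that T cells need, was detected on every TAN array (12.23, 12.40 and 14.02) and on no NN array (4.34 to 4.54, median 4.45). It was at least 173-fold higher. Of the 22 arginine, nitric oxide and prostaglandin enzymes 11 were higher and 5 lower (median 0.75), and with TAN replicate 4 alone also 11 and 5 (1.03). Ass1, which rebuilds arginine from citrulline, rose 18.3-fold. Alox12, a platelet lipoxygenase, was at least 46.4-fold lower, detected on every NN array (10.62 to 12.40) and on no TAN array.

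Matrix and tissue remodelling genes were higher in 14 of 22 and lower in 3 (median 1.59), and with TAN replicate 4 alone in 14 and 1 (1.60). Mmp13, an interstitial collagenase, was at 12.58, 13.37 and 12.95 against 6.25 to 7.48 (median 6.76), a 72.9-fold rise. Mmp14, a membrane-bound collagenase, rose 66.8-fold. Mmp12, the elastase known from macrophages, was at 12.32, 12.66 and 12.13 with no detected signal in NN (4.48 to 4.74), at least 121-fold higher, and Timp1, an inhibitor of these enzymes, was at least 27.1-fold higher (10.68, 10.31 and 9.62). The 3 that fell were the inhibitor genes Timp2 (-1.75) and Timp3 (-3.98) and the matrix protein gene Sparc (-2.39). With TAN replicate 4 alone they were at -0.64, -3.88 and -0.61, and only Timp3 kept its call. Mmp9, the gelatinase stored in neutrophil granules and counted with the granule genes, fell too, from 15.11 to 15.37 in NN to 14.09, 13.90 and 13.72, a 2.50-fold fall.

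Hypoxia response genes were higher in 15 of 21 and lower in 4 (median 1.34), and with TAN replicate 4 alone in 16 and 3 (1.49). Hilpda, a hypoxia-induced lipid droplet protein, was at 14.63, 14.88 and 14.89 against 5.96 to 7.13 (median 6.27), a 330-fold rise. Egln3, an oxygen-sensing prolyl hydroxylase, rose 16.1-fold, Bhlhe40, a transcriptional repressor, rose 11.3-fold, and P4ha1, a collagen prolyl hydroxylase, was at least 10.8-fold higher. Vegfa, an angiogenic growth factor, rose 2.42-fold, from 8.89 to 9.61 (median 9.21) to 10.55, 10.80 and 10.16. The 4 that fell were the lipid droplet gene Plin2 (-2.36, but 0.82 and called higher with TAN replicate 4 alone), the hydroxylase gene Egln1 (-1.67), the mitophagy gene Bnip3l (-1.45) and the repressor gene Mxi1 (-0.87, or -1.48 with TAN replicate 4 alone). Plin2 was not called by limma without TAN replicate 1 (adjusted p = 0.0509).

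Glycolysis genes were mixed, 10 of 20 higher and 5 lower (median 0.54), and 11 and 4 with TAN replicate 4 alone (0.85). Slc2a1, the glucose transporter Glut1, rose 19.9-fold, from 10.47 to 10.81 (median 10.65) to 15.15, 15.13 and 14.64. Hk2, an inducible hexokinase, rose 1.86-fold, while Hk1 was at 4.66, 4.62 and 7.45 against 9.11 to 9.70. Hk1 was at least 7.30-fold lower with all arrays and 3.73-fold lower with TAN replicate 4 alone. Eno2, an enolase, was at least 29.9-fold higher (10.72, 10.70 and 9.62).

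Heat shock and unfolded protein genes were higher in 17 of 24 and lower in 2 (median 1.40), and with TAN replicate 4 alone in 15 and 1 (1.30). Hspa1a, the inducible Hsp70, was at 11.94, 11.77 and 12.45 with no detected signal in NN (4.43 to 4.94, median 4.52), at least 97.6-fold higher. Ppp1r15a, which restores translation after stress, rose 17.4-fold. The 2 that fell were Sesn2 (-1.42) and Atf4 (-1.05), a pair of stress response genes, and neither was called with TAN replicate 4 alone (-1.29 and 0.38, limma adjusted p = 0.0664 and 0.493). The 1 lower there was the asparagine synthetase gene Asns (-0.62), which was not called with all arrays (-0.16). Atf4 was also not called by limma against NN replicates 1 to 5 (-0.93, adjusted p = 0.0622) or without TAN replicate 1 (0.175) or 2 (0.159).

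Other genes named for the size of their rise came from several roles. Dab2, an endocytic adaptor, rose 132-fold (13.02, 13.47 and 13.27 against 5.63 to 6.74). Rgs1, a regulator of G protein signalling, rose 127-fold, with NN arrays spread from 4.75 to 7.56, Tgif1, a repressor of TGF-beta signalling, 76.5-fold, Cish, a feedback inhibitor of cytokine signalling, 76.0-fold, and the tubulin gene Tubb6 69.8-fold. Ch25h, which makes 25-hydroxycholesterol, was at least 136-fold higher, and Saa3, an acute-phase protein, at least 106-fold higher. Ciart, a circadian repressor, was at least 63.6-fold higher and Wfdc2, a secreted protein known from epithelium, at least 49.0-fold higher (11.66, 11.36 and 10.16). Arrays that did not overlap and a call higher with TAN replicate 4 alone were conditions for naming these 9 genes, and are no further result.

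Granule protein genes were lower. Of 6 azurophil granule genes 5 were lower and 1 higher (median -5.70), with the same counts on TAN replicate 4 alone (-5.36). Mpo, which encodes myeloperoxidase, was at 6.63, 6.72 and 6.26 in TAN and 12.03 to 13.21 in NN (median 12.50), a 62.8-fold fall (limma adjusted p = 2.46e-12). Elane, neutrophil elastase, was at 5.74, 5.42 and 6.10 against 10.88 to 12.45 (median 11.49), at least 44.4-fold lower, with 1 of 3 TAN arrays detecting it. Ctsg, cathepsin G, was detected on every NN array (9.96 to 11.03) and on no TAN array, at least 23.1-fold lower. Serpinb1a, a cytosolic inhibitor of these proteases, was at 5.47, 5.16 and 6.85, the last alone detected. It was at least 79.8-fold lower with all arrays and 53.9-fold lower with TAN replicate 4 alone. The 1 that rose was Ctsc, which activates the granule serine proteases and is expressed in other cells too; it was at 9.29, 9.31 and 9.33 with no detected signal in NN.

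Of 21 specific and gelatinase granule genes 17 were lower and 1 was higher (median -2.74), and with TAN replicate 4 alone 16 and 1 (-1.52). Camp, the cathelicidin gene, was at 9.48, 9.17 and 10.34 against 15.43 to 15.70 (median 15.54), a 59.3-fold fall. Ltf, lactoferrin, was at 11.79, 11.49 and 12.56 against 15.85 to 15.93 (median 15.90), a 15.5-fold fall from near the top of the scale. Chil3, a chitinase-like protein, fell 53.5-fold (96.5-fold with TAN replicate 4 alone) and Olfm4, a granule glycoprotein of a subset of neutrophils, 62.3-fold (20.3-fold). Mmp8, the neutrophil collagenase, was at 6.88, 6.68 and 6.56 against 11.21 to 12.14 (median 11.46), a 29.8-fold fall. For each of these 5 genes all TAN arrays lay below all NN arrays, as for 22.9% of all genes tested. Arrays that did not overlap were a condition for naming Camp, Chil3 and Olfm4.

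Fcnb, the ficolin gene whose promoter is printed above, was detected on every NN array (11.70 to 12.37, median 12.15) and on no TAN array (5.38, 5.18 and 5.31), at least 75.3-fold lower. Padi4, the enzyme that citrullinates histones in extracellular traps, was at 4.33, 4.55 and 5.02 with no detected signal, against 10.55 to 11.17, at least 32.2-fold lower. Ngp, a secondary granule protein, was at least 259-fold lower with all arrays. It stood at 4.82 and 5.37 on TAN replicates 1 and 2 but at 11.27 on TAN replicate 4, against 15.70 to 15.87 in NN, so the size of its fall depended on the array. The member that rose was Stfa2, a cysteine protease inhibitor (1.72, SE 0.24, or 1.02 with TAN replicate 4 alone).

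**Figure D3:**
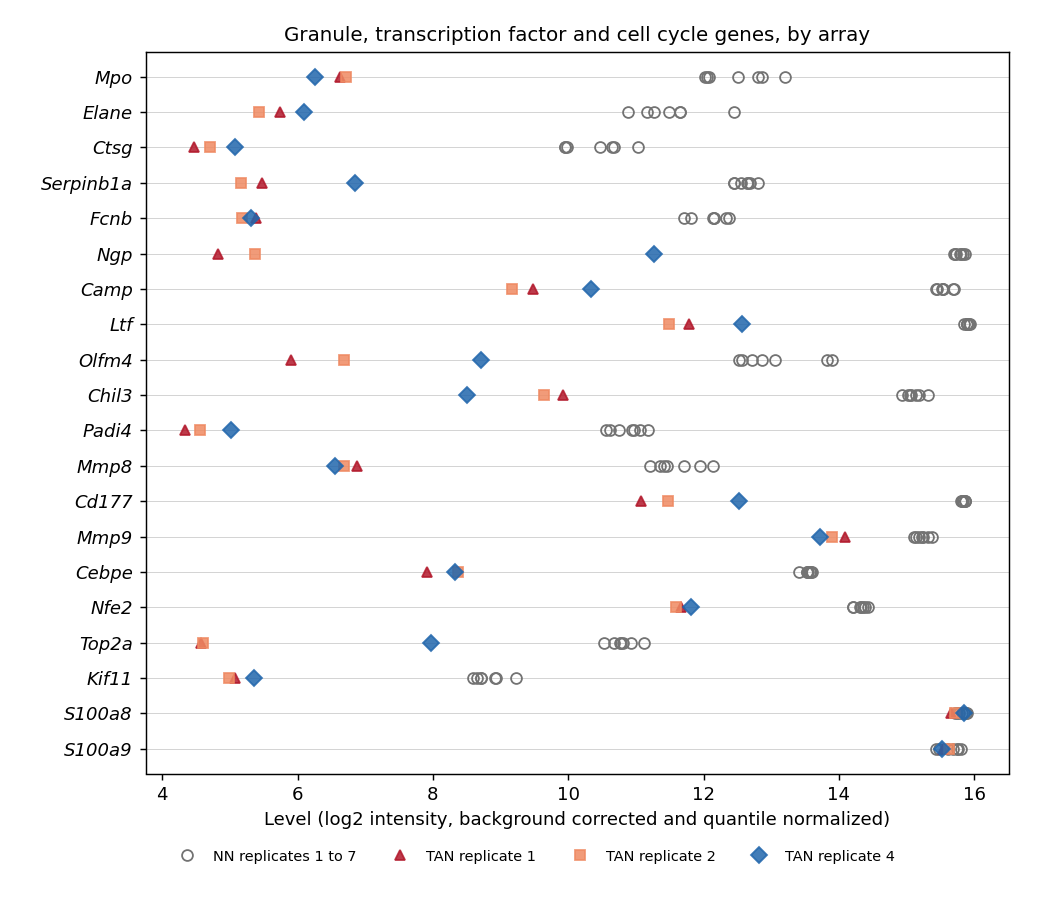
Level of granule, transcription factor and cell cycle genes (rows) on each array, as log2 intensity. Open circles are the 7 NN arrays and filled symbols the 3 TAN arrays. In all rows but S100a8 and S100a9 every TAN array lies to the left of every NN array, which was a condition for naming some of these genes. Ngp, Top2a and Olfm4 are higher on TAN replicate 4 than on the other TAN arrays.

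Transcription factors of granulopoiesis divided, 6 of 16 higher and 7 lower (median 0.07), and 6 and 6 with TAN replicate 4 alone (0.22). Cebpe, which drives specific granule genes, was at 7.91, 8.37 and 8.32 against 13.41 to 13.60 (median 13.54), a 40.4-fold fall (limma adjusted p = 2.72e-15). Nfe2, a factor of erythroid cells and megakaryocytes, fell 6.18-fold, and Gfi1b, a repressor known from the same lineages, was at least 9.76-fold lower. Klf4, a factor of monocytes, rose 10.1-fold (20.6-fold with TAN replicate 4 alone). Of 10 granulocyte precursor markers, which share Mpo, Elane, Fcnb, Cebpe and others with these lists, 8 were lower and none was higher (median -5.09, and -4.71 with TAN replicate 4 alone).

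Cell cycle genes fell with them: 22 of 30 were lower and 1 higher (median -1.05), and 20 and 1 with TAN replicate 4 alone (-1.23). Top2a, the topoisomerase of dividing cells, was at 4.57, 4.60 and 7.98 against 10.53 to 11.12 (median 10.77). It was at least 17.6-fold lower with all arrays and 7.08-fold lower with TAN replicate 4 alone. Cdk1, the mitotic kinase, was at least 10.3-fold lower, at 4.40 and 4.63 on TAN replicates 1 and 2 and 7.99 on TAN replicate 4, which alone gave a 4.13-fold fall. Kif11, a spindle motor, was at least 7.77-fold lower with no detected signal in TAN. The 1 that rose was Cdkn1a, which encodes the cell cycle inhibitor p21. It stood at 13.95, 14.16 and 13.79 against 5.57 to 7.07 (median 6.36), a 182-fold rise.

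All 6 NADPH oxidase genes tested, which make the superoxide of the respiratory burst, were lower (median -2.56), and 5 of them with TAN replicate 4 alone (-1.20). Ncf1, the p47phox subunit, was at 8.11, 8.21 and 9.93 against 11.99 to 12.40 (median 12.18), a 10.8-fold fall. Cybb, the catalytic subunit, was at 5.18, 4.66 and 5.00 with no detected signal in TAN and at 6.21 to 6.82 in NN, at least 1.73-fold lower. The GTPase gene Rac2 was at 8.16 and 8.19 on TAN replicates 1 and 2 and 13.10 on TAN replicate 4, against 14.53 to 14.99, so its 32.2-fold fall came to -1.73 log2 with TAN replicate 4 alone. Rac1 was not called on that array alone (-0.38).

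Chemoattractant receptors were mixed, 6 of 13 higher and 5 lower (median 0.53), and 4 and 3 with TAN replicate 4 alone (-0.12). Ccrl2, an atypical chemerin receptor, rose 42.9-fold (77.0-fold with TAN replicate 4 alone), Cx3cr1, the fractalkine receptor of monocytes, 13.3-fold (27.7-fold) and Cxcr1 10.6-fold. C5ar1, the receptor of complement C5a, fell 6.47-fold, but 15.6-fold with TAN replicate 4 alone and by 2.06 on the log2 scale without it (7.06, 7.01 and 5.14). Cxcr2 was at 12.50, 12.45 and 13.80 against 13.46 to 14.34 (median 13.85), and Cxcr4, the receptor that retains neutrophils in the marrow, at 12.08, 12.25 and 12.98 against 12.87 to 13.41 (median 13.22). Both were called lower with all arrays (-1.01 and -0.79) and not with TAN replicate 4 alone (-0.12 and -0.25). Csf3r, the G-CSF receptor, behaved alike, -1.44 with all arrays and -0.17 with TAN replicate 4 alone.

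Among cytokine receptors 8 of 24 were higher and 8 lower (median -0.11), and 8 and 4 with TAN replicate 4 alone (0.25). Il1r2, a decoy receptor of interleukin-1 and a marker of mature neutrophils, was at 14.15, 14.02 and 13.96 against 10.52 to 11.15 (median 10.81), a 9.18-fold rise. Il10ra, a chain of the interleukin-10 receptor, rose 10.9-fold (22.1-fold with TAN replicate 4 alone). Tnfrsf1a, a TNF receptor, fell 8.78-fold. Il17ra, a chain of the interleukin-17 receptor, was at least 17.5-fold lower with all arrays, at 5.43 and 5.02 on TAN replicates 1 and 2 and 8.56 on TAN replicate 4, which alone gave a 5.38-fold fall. Of the 12 neutrophil markers 3 were higher and 7 lower (median -0.80, and -0.15 with TAN replicate 4 alone): G0s2, an inhibitor of lipolysis, rose 14.1-fold beside Il1r2, while Cd177, a neutrophil surface glycoprotein, fell 17.8-fold (9.99-fold with TAN replicate 4 alone) beside Mmp8.

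Lysosomal genes and Fc receptors were raised. Pattern recognition genes went both ways, with 8 called at least 2-fold higher and 8 at least 2-fold lower. Of 24 lysosome and lipid handling genes 17 were higher and 4 lower (median 0.78), and 16 and 2 with TAN replicate 4 alone (0.98). Trem2, a lipid-sensing receptor known from macrophages, was at 12.21, 12.34 and 12.10 against 6.16 to 6.75 (median 6.29), a 56.7-fold rise. The protease gene Ctss rose 16.5-fold, Ctsz 15.8-fold, and Gpnmb, a lysosomal glycoprotein of macrophages, was at least 16.4-fold higher (10.15, 9.80 and 8.51). Pattern recognition genes were higher in 16 of 29 and lower in 9 (median 0.51), and in 13 and 7 with TAN replicate 4 alone (0.57). Clec4n, which encodes the lectin receptor dectin-2, rose 57.3-fold, and Cd14, a coreceptor for lipopolysaccharide, rose 42.1-fold to 15.22, 15.20 and 15.78. Fc receptors were higher in 4 of 6 and lower in none (median 1.85), led by the high-affinity IgG receptor Fcgr1, which rose 21.6-fold; with TAN replicate 4 alone 5 were higher (2.24).

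The other function lists were mixed or moved less. TGF-beta pathway and response genes were higher in 10 of 22 and lower in 3 (median 0.50), apoptosis and survival genes in 10 of 18 and 5 (0.67), cholesterol synthesis genes in 7 of 20 and 4 (0.07), adhesion molecules in 7 of 17 and 7 (-0.26) and S100 genes in 2 of 9 and 1 (0.05). With TAN replicate 4 alone the counts were 11 and 2, 7 and 3, 7 and 4, 6 and 5, and 3 and 2. Ltbp3, which binds latent TGF-beta, was at least 10.5-fold higher. S100a10, an annexin partner, rose 14.1-fold.

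Adhesion molecules went both ways. Itgb2, the beta chain of the leukocyte integrins, was at least 18.9-fold lower, at 5.30, 5.38 and 9.71 against 11.22 to 11.78 (median 11.44), with a difference of -1.76 on TAN replicate 4 alone. Ceacam1, an adhesion and inhibitory receptor, was at least 6.99-fold lower and Esam, an endothelial and platelet adhesion molecule, fell 10.6-fold. Itgae, the integrin CD103, was at least 11.01-fold higher (9.34, 9.37 and 8.01), with no detected signal in NN.

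Ribosomal protein genes were higher in 24 of 39 and lower in 5 (0.55), and respiratory chain genes in 23 of 49 and 12 (0.34). On TAN replicate 4 alone these were 20 and none (0.62) and 10 and 6 (0.06). Each ribosomal protein gene called lower lay below all NN arrays on TAN replicates 1 and 2 and above all of them on TAN replicate 4. Rps2, of the small subunit, was at 7.61 and 7.50 on TAN replicates 1 and 2 and 13.43 on TAN replicate 4, against 11.49 to 12.16 in NN, and was not called by limma without TAN replicate 1 (adjusted p = 0.136) or 2 (0.146). Ndufc2, of respiratory complex I, was at 5.71, 5.81 and 11.74 against 10.40 to 11.18.

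Markers of other cells differed between the preparations. In such RNA from many cells, fewer cells of a type and less RNA per cell cannot be told apart. All 12 erythroid markers were lower (median -5.20), also with TAN replicate 4 alone (-5.15), and 8 had no detected signal on any TAN array. Slc4a1, the red cell anion exchanger, was at 4.61, 4.61 and 4.64 in TAN and 14.65 to 14.98 in NN (median 14.90), at least 507-fold lower. Alas2, the erythroid enzyme of heme synthesis, was at least 296-fold lower, and the globin genes Hbb-b2 and Hba-a1 fell 98.3-fold and 57.5-fold, the latter from the top of the scale. The summed level of the erythroid markers was 10.88 to 11.35 in TAN against 16.86 to 17.05 in NN.

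Platelet, eosinophil and B cell markers were also lower. Of 8 platelet and megakaryocyte markers 7 were lower (median -4.46), with Gp5 and Gp1bb, subunits of the von Willebrand receptor, at least 36.04-fold and at least 17.3-fold lower. Of 9 eosinophil, basophil and mast cell markers 6 were lower and 2, Il5ra and Tpsab1, higher (1.04 and 1.23, not called with TAN replicate 4 alone), with a median of -1.86. Prg2, the eosinophil major basic protein, was at 6.82, 7.03 and 4.78 against 14.03 to 14.91 (median 14.32), a 291-fold fall, and Epx, eosinophil peroxidase, was at least 8.28-fold lower. Of 9 B cell markers 7 were lower and none was higher (median -3.37), among them Cd79a, a chain of the B cell receptor, at least 14.5-fold lower. With TAN replicate 4 alone 7, 6 and 6 were lower and none was higher. The summed levels were 12.48 to 12.996 in TAN against 14.2 to 15.4 in NN for platelet markers, 8.18 to 8.93 against 14.13 to 14.99 for eosinophil, basophil and mast cell markers and 8.86 to 9.13 against 11.5 to 12.8 for B cell markers. The granule, cell cycle and transcription factor genes called lower were low on these same TAN arrays, and the part of these cells in those falls was not tested.

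Monocyte and macrophage markers moved the other way. Of 16 tested 12 were higher and 2 lower (median 2.65), and with TAN replicate 4 alone 14 and 1 (3.49). Folr2, a folate receptor of tissue macrophages, was at 9.68, 10.13 and 11.71 with no detected signal in NN, at least 33.4-fold higher. The summed level of the 16 was 14.94 and 15.33 on TAN replicates 1 and 2 and 16.82 on TAN replicate 4, against 15.21 to 15.56 in NN. Ly6c1, a surface antigen also of monocytes, was at 7.75, 8.04 and 12.09 in TAN against 14.72 to 15.04 in NN, a 50.04-fold fall. C1qa, a complement subunit made by macrophages, was at 7.48 and 7.73 on TAN replicates 1 and 2, under the NN arrays (8.45 to 9.70), and at 12.97 on TAN replicate 4. The part of such cells in the chemokine, class II, Trem2 and Arg1 values was not tested.

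Epithelial and mesothelial markers were higher in 6 of 9 and lower in none (median 2.13), and in 5 and 1 with TAN replicate 4 alone (2.36). Krt8, a simple epithelial keratin, was at 11.49, 11.31 and 10.73 against 4.54 to 6.37 (median 5.95), a 46.3-fold rise. Its partner Krt18 was at least 17.7-fold higher (10.18, 9.81 and 8.79) and Msln, mesothelin, at least 9.42-fold higher (9.61, 8.999 and 7.43), both with no detected signal in NN. The summed level of these markers was 12.5, 12.3 and 11.5 in TAN and 7.89 to 8.52 in NN. Endothelial markers were lower in 7 of 9 and higher in 1, Flt1 (median -1.14). With TAN replicate 4 alone Flt1 was at 0.79 and is not the 1 counted as higher below. Fibroblast markers were higher in 5 and lower in 2 of 9 (median 1.26). Dendritic cell markers were higher in 4 and lower in 1 of 8 (0.79), and T and NK cell markers in 2 and 3 of 13 (-0.01). With TAN replicate 4 alone these counts of higher and lower were 1 and 6, 2 and 2, 3 and 1, and 0 and 2.

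**Figure D4:**
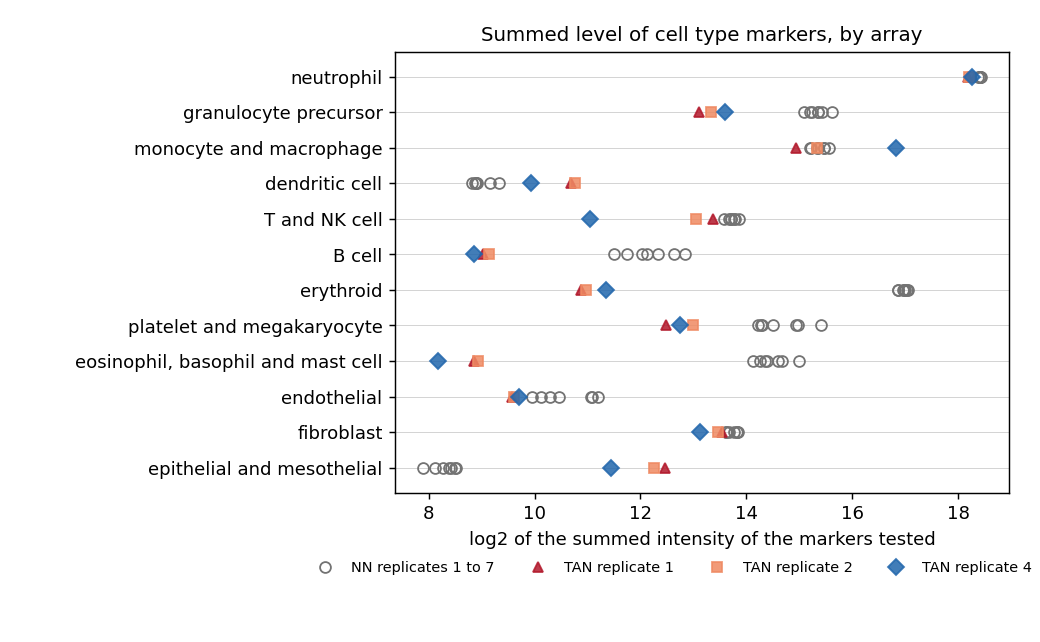
Summed level of the markers of each cell type on each array, as log2 of the summed intensity of the markers tested. Open circles are the 7 NN arrays and filled symbols the 3 TAN arrays. Sums are compared between arrays within a row, not between rows. Epithelial and dendritic cell markers are higher on all TAN arrays than on all NN arrays, monocyte and macrophage markers are higher than all NN arrays on TAN replicate 4 only, and the other 9 sums are lower on all TAN arrays.

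The genes on which the TAN arrays differed most were low on TAN replicates 1 and 2. Of 9523 genes, TAN replicate 4 lay at least 2 log2 above the mean of the other TAN arrays for 627 (6.58%) and as far below it for 78 (0.819%). The 10 called genes with the largest such gap were Ngp, Ltb, Lyz2, H2az1, Rpl7a, Gpx1, Rps7, Clptm1, Pias4 and Actn4, and on all 10 TAN replicate 4 was the higher. Rpl7a was not called by limma without TAN replicate 1 (adjusted p = 0.0652) or 2 (0.0615). Lyz2, the myeloid lysozyme, was at 7.62, 7.76 and 14.69 against 15.76 to 15.94 in NN, so a 57.0-fold fall with all arrays became -1.17 and no call with TAN replicate 4 alone. Ltb, lymphotoxin beta, was at 4.75, 5.12 and 12.31 against 12.77 to 13.29, and Gpx1, a glutathione peroxidase, at 9.01, 9.01 and 15.27 against 15.89 to 15.97. Rps7, a ribosomal protein gene, was at 7.85, 7.99 and 14.26 against 13.25 to 13.90, and was called lower with all arrays (-3.60) and higher with TAN replicate 4 alone (0.62). Of the 6603 called genes 530 (8.03%) had the opposite sign on TAN replicate 4 alone.

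**Figure D5:**
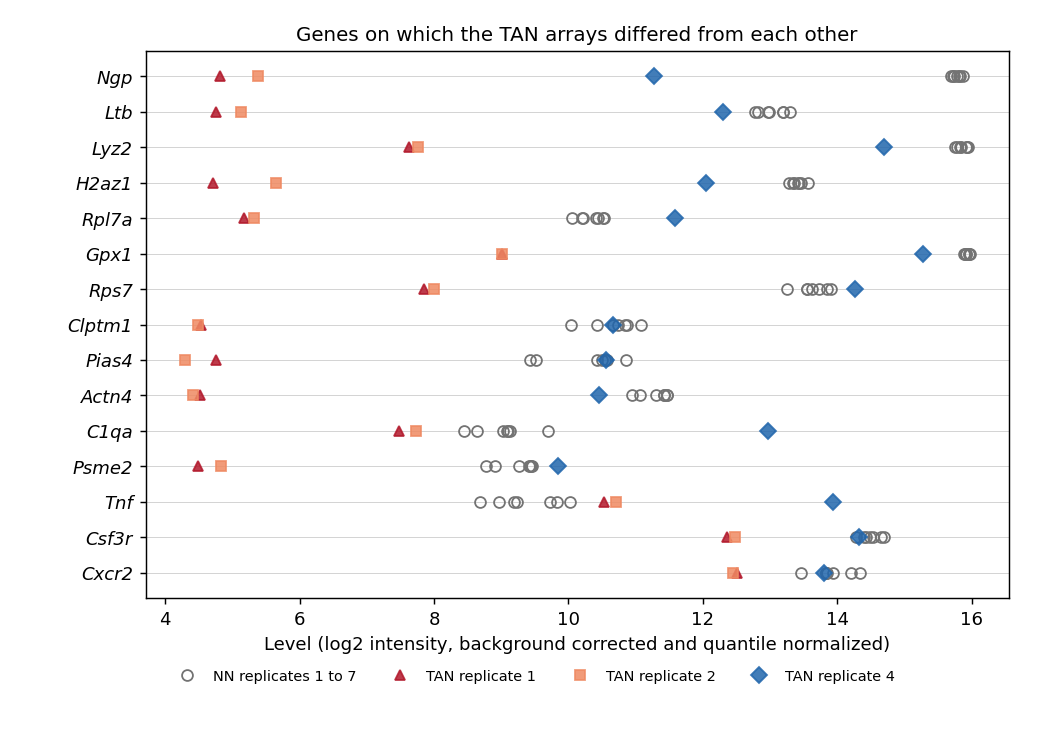
Level of 15 genes on which the TAN arrays differed, as log2 intensity by array. The first 10 rows are the called genes with the largest gap between TAN replicate 4 and the other TAN arrays; the last 5 were described above. In every row TAN replicate 4 lies to the right of TAN replicates 1 and 2, and for Clptm1, Pias4, Csf3r and Cxcr2 it lies among the NN arrays.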

How the data were processed

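RNA of 19 mouse samples was measured on single-colour bead arrays, 1 array a sample, and grouped by sample title. The authors deposited a table of mean bead intensity for 25697 probes on a linear scale, not normalized, with a detection p-value beside each intensity, exported from GenomeStudio per the submitters' processing notes (version not stated). They also deposited a normalized intensity table of 17004 probes, used here as an alternative. Nothing was taken from the labels' protocols, which deal with fixed biopsies and not with these cells.

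The neqc function of limma 3.58.1 (R 4.3.3) corrected the background from the detection p-values with an offset of 16, then quantile normalized the arrays and took log2. Kept were 13945 probes detected (p-value below 0.01) on 3 arrays or more. Of these 13088 had a gene name in the platform annotation and 857 did not and were left out. A gene with several probes was represented by the brightest on average, leaving 9523 genes. TAN replicates 1, 2 and 4 detected 9697, 9599 and 10773 probes and NN arrays 10660 to 11807. Precision is limited by how few arrays there are.

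In limma, 1 linear model held all 4 groups, with a variance trend and 15 residual degrees of freedom, and the two-sided TAN minus NN test was adjusted over all genes by Benjamini-Hochberg (threshold 0.05). Where most arrays of the dimmer group did not detect a gene, its fold is a lower bound ("at least"). Each dim array was raised for it to the lowest detected probe value on that array. The bound holds for the difference of group means, and a single array can lie closer to the other group. The 42 gene lists and the rule for named genes were chosen with earlier results of these data known. The rule named the 15 largest rises and 15 largest falls measured on both sides, the 10 brightest genes detected on 1 side only in each direction, up to 4 called members of a function list and 3 of a marker list, a fixed list of 30 genes, and the 10 called genes on which TAN replicate 4 and the other TAN arrays lay farthest apart. To be named by size, a gene needed groups that did not overlap, probes that all had 1 sign, and a call the same way with TAN replicate 4 alone. Mki67 and Spp1 of the fixed list had no probe among those tested, and 1 further gene is not reported here. The alternatives were other background and scaling choices, other filters, other probe rules, other fits, the batch, the replicate number as a block and single TAN arrays left out. Whether equal replicate numbers pair TAN with NN was checked: arrays of the same number deviated from their group means with correlations of 0.106, 0.0786 and 0.128 over genes, and nothing in the labels pairs them.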

Additional observations from a re-analysis of the deposited data

Results flagged for a closer look

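Of the 183 genes named, 8 had 1 NN array far from the other 6, with a gap to the nearest array above 0.568 of the group's range. The rule flags about 1 in 20 groups of independent normal values. These genes share the same NN arrays, 2 of them of the other batch, so whether 8 differs from chance was not tested. NN replicate 4 was lowest for Cebpe (13.41) and Asns (11.22) and highest for Bnip3l (13.47) and Cd14 (10.42). NN replicate 6, of the other batch, was highest for Ccl7 (5.02, under the detection limit) and lowest for Cxcr4 (12.87). NN replicate 2 was lowest for Ccl6 (10.74) and NN replicate 5 highest for Traf1 (5.17, under the detection limit). For Cebpe, Bnip3l, Cd14, Ccl7 and Traf1 the outlying NN array still lay on its own side of all TAN arrays.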

How the results depend on the processing

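The direction and call of most named genes held under all 17 alternatives. Over all genes, 6603 were called. Calls of at least 2-fold higher fell in number from 2288 to 1511 when the background was not corrected and to 1523 in the authors' normalized table. Median scaling moved the median difference of all genes from 0.19 to 0.08, and lists are read relative to that. With TAN replicate 4 alone 2460 instead of 3742 genes were called higher, and 2413 when it was set against NN replicates 1 to 5, an alternative chosen after seeing the data. With the replicate number as a block, which the pairing check did not bear out, 4347 genes were called and 2419 were higher, and all named genes kept their direction, while 19 lost their call. Leaving out 1 TAN array at a time gave 5800 to 7118 calls, 3194 to 4205 of them higher and 2596 to 2913 lower, with 2060 to 2827 at least 2-fold higher and 1763 to 2024 at least 2-fold lower.

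Signs turned mainly with TAN replicate 4 alone, and in brackets with that array against NN replicates 1 to 5: S100a8 0.031 (0.022), Ccl6 0.39 (0.41), Tgfb1 0.79 (0.65), Gadd45a 0.32 (0.27), Oas3 0.61 (0.52), H2-DMb2 0.32 (0.31), Psme2 0.61 (0.45), Plin2 0.82 (0.80), Atf4 0.38 (0.50), Rpl7a 1.24 (1.16), Rps7 0.62 (0.56), Rps2 1.55 (1.52), Ndufc2 0.87 (0.74), Lgals9 0.43 (0.38), Clptm1 0.00096 and Pias4 0.29 alone, and Cxcr2 0.021 only in the second. With median scaling S100a8 was at 0.047, S100a9 at 0.13 and C1qa at -0.0098, and C1qa ran from -1.41 (without TAN replicate 4) to 1.34 (without TAN replicate 1), and was at -1.33 with array weights, a fit that stopped before its tolerance was met. Asns, not called, ran from -0.34 (without TAN replicate 1) to 0.074 (without TAN replicate 4). The cause of these turns was not tested. Where no TAN or no NN array detected a gene, its level there is only a bound.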

Other observations

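Further genes were detected on NN arrays only. Among the 10 NN-only genes with the highest NN level, beside Slc4a1, Alas2, Fcnb, Alox12 and Gp5, were Septin5, a septin of platelets and neurons, at least 68.2-fold lower in TAN, Ear6, an eosinophil-associated ribonuclease, at least 59.2-fold lower, Trim10, a factor of red cell maturation, at least 39.8-fold lower, Slc38a5, an amino acid transporter, at least 32.7-fold lower, and Tmem45a2, at least 70.1-fold lower.

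Further genes were among the 15 with the largest fall when measured on both sides. Itgb2l, an integrin beta chain known from mouse neutrophils, fell 66.7-fold (6.71, 6.42 and 5.36 against 12.11 to 12.44), and Fmo5, a flavin monooxygenase, fell 33.1-fold (6.28, 6.47 and 6.14 against 11.11 to 11.57). Ets1, a transcription factor of lymphocytes, fell 34.8-fold (6.22, 6.84 and 8.55 against 12.11 to 12.57). Tecr, an enzyme of fatty acid elongation, and Lcp1, the leukocyte plastin, fell 62.3-fold and 50.7-fold with all arrays. Tecr was at 6.75 and 6.75 on TAN replicates 1 and 2 and 12.07 on TAN replicate 4, and Lcp1 at 6.90, 6.03 and 11.86, so that with TAN replicate 4 alone their differences were -2.41 and -2.07.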
